A study of Mus musculus with 34 samples.

Results

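The genes that encode the constitutive proteasome were followed in astrocytes of the mouse cortex from the first postnatal weeks to 18 months of age. Members were taken by name: every gene in the expression table whose symbol starts with Psma, Psmb, Psmc, Psmd or Psme and a number, without the interferon-inducible Psmb8, Psmb9 and Psmb10 and without pseudogenes. This gave 42 of 20613 genes, 16 named for the core particle (Psma, Psmb) and 26 named for the cap and its activators (Psmc, Psmd, Psme). Of these, 7 lie outside the constitutive complex of most tissues: the testis form Psma8, the thymus form Psmb11, the assembly chaperones Psmd5, Psmd9 and Psmd10, the second Psme2 copy Psme2b, and Psmc3ip, which shares only part of the name. They were kept and counted, which leaves 35 constitutive genes, 14 of the core and 21 of the cap. Cap counts, medians and correlations include the activators Psme1 to Psme4, which are not part of the cap itself. The study profiled polyadenylated RNA of magnetically isolated cortical astrocytes from wild-type (WT) male mice at 9 ages, in 34 libraries. There were 4 libraries each at postnatal day 7 (P7), at P14 and at 18 months (18m), 3 each at P21, P28, P60 and 12m, and 5 each at 3m and 6m. No animal carried a transgene or received a treatment, per the labels, and age is all that separates the groups there. The labels do not say that libraries came from separate animals, so p-values measure only the spread between libraries, which may be technical.

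The proteasome degrades proteins tagged with ubiquitin. Its barrel-shaped core is built from outer alpha rings, which gate the entry pore, and inner beta rings, which hold the proteolytic sites: Psmb5 carries the chymotrypsin-like activity, Psmb6 the caspase-like and Psmb7 the trypsin-like activity. The cap consists of a base with the ring of unfolding ATPases (Psmc1 to Psmc6), the scaffolds Psmd1 and Psmd2 and the ubiquitin receptor Psmd4, and a lid with the deubiquitinase Psmd14. Other activators can take the cap's place: PA28, made of Psme1 and Psme2, PA28 gamma (Psme3) and PA200 (Psme4). Proteasome genes are known to be induced together by the transcription factor Nfe2l1 when proteasome activity falls short. In the brain the proteasome clears short-lived and damaged proteins in neurons and glia alike, and astrocytes can make its interferon-inducible form during inflammation.

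Expression is given in TPM, a share of all transcripts scaled to a fixed sum and corrected for transcript length, so levels can be set side by side between genes. In bulk cells, fewer cells of a type and less RNA per cell cannot be told apart. The 12 astrocyte markers were present at every age, with a sum of 11200 to 13800 TPM at P7, 21100 to 21700 at P60, 11900 to 20300 at 3m and 14700 to 21500 at 18m. They did not move together: 5 rose and 3 fell from P7 to P60, 2 rose and 2 fell from P60 to 3m, and 1 rose and 7 fell from 3m to 18m. Transcripts of other cells were also present, and beyond the fits with marker covariates given below their part in the results was not tested. From P7 to P60, 9 of 12 neuronal markers rose, with a sum of 45.7 to 71.9 TPM at P7 and 329 to 647 at P60. Likewise 7 of 10 oligodendrocyte markers rose and 1 fell (256 to 400 against 1350 to 2480, Mobp at 0 in all P7 libraries). All 6 ependymal markers and 5 of 10 microglial markers rose, while 7 of 10 endothelial and 4 of 6 fibroblast markers fell. From P60 to 3m, 3 of 10 oligodendrocyte markers fell, and 3 of 10 endothelial and 3 of 6 fibroblast markers rose. From 3m to 18m, 8 of 12 neuronal markers fell (146 to 587 against 68.7 to 164), as did 3 of 10 microglial and 3 of 6 fibroblast markers. The pericyte and mural sum was 2270 to 3030 TPM at 3m and 3170 to 5800 at 18m, with none of its 8 genes called, and the haemoglobin-led erythroid sum was 4300 to 8860 and 8920 to 35100 with none of its 5 genes called. The number of genes listed at 0 was 4522 to 4769 at P7, 2854 to 3130 at P60, 1155 to 1656 at 3m and 4109 to 4654 at 18m. It split the 12m libraries, at 4556, 4532 and 1615, so it did not follow age alone, and no label names a batch. Replicate 1 at 18m stood apart: in that library the mean log2(TPM + 1) of the core exceeded that of the cap by 1.11, against 0.71 to 0.84 in the other 3 libraries of that age.

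Promoter sequence was available for 35 of the 42 members in the RefSeq promoter table (build GRCm38.p6). Since most members moved in the same direction from P7 to P60, the 250 bases before each start were searched on both strands for CCAAT, the box bound by NF-Y, and for TGANNNNGC, a relaxed form of the antioxidant response element recognised by Nfe2l1 and Nfe2l2. The strict form TGACTCAGC was searched as well, and every match to it is also a match to TGANNNNGC. CCAAT was found in 14 of the 35 members (40%), against 34.46% of all 27025 promoters. TGANNNNGC was found in 12 (34.29%), against 35.14% of all promoters. TGACTCAGC was found in 0 members and in 0.3626% of all promoters. Shares in the members were thus near those of all promoters, and a match is a description of letters only. The 4 windows of 200 bases printed here show a member with both motifs (Psma6), the most abundant member (Psmb6), and the 2 genes that rose between P60 and 3m (Psmd2 and Psme3). All lie on the + strand, upstream of the RefSeq start and outside annotated exons, at chr12:55384022-55384221 for Psma6, chr11:70525157-70525356 for Psmb6, chr16:20651452-20651651 for Psmd2 and chr11:101316013-101316212 for Psme3. Capitals mark the motifs on either strand.
Psma6: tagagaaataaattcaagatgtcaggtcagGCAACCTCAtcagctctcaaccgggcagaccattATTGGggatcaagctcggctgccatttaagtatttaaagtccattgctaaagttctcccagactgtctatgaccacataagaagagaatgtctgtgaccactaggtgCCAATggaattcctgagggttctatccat
Psmb6: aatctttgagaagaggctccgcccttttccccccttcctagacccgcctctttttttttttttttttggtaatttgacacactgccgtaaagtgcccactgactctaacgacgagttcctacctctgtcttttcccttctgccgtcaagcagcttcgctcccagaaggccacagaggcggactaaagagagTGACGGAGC
Psmd2: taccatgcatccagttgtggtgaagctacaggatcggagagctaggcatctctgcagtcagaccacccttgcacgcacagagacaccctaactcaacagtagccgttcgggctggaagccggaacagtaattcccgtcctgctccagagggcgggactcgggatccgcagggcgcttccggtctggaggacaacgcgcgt
Psme3: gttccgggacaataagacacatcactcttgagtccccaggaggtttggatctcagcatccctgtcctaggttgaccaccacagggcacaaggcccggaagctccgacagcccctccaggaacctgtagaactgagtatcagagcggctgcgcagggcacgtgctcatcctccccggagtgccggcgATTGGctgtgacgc
In Psma6, CCAAT began 136 and 29 bases before the start and TGANNNNGC 170 bases before it. In Psmb6, TGANNNNGC began 9 bases before the start. In Psme3, CCAAT began 14 bases before the start, and the Psmd2 window held neither set of letters.

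Subunits that stand in equal number in the complex differed widely in transcript level. Averaged over all 34 libraries, the 14 constitutive core genes ranged from 133 TPM for Psma2, an alpha ring subunit, to 664 TPM for Psmb6. The beta ring had a median of 426 TPM and the alpha ring 262 TPM. Among catalytic subunits the order was Psmb6 (664 TPM), Psmb5 (426 TPM) and Psmb7 (149 TPM). Cap genes were lower: the base ATPases had a median of 202 TPM and the lid 147 TPM, with Psmc5, an ATPase of the base, the highest of the cap at 241 TPM. The scaffolds Psmd2 and Psmd1 averaged 123 and 78.5 TPM. Among activators, Psme2 (166 TPM) and Psme1 (128 TPM) exceeded Psme3 (59.6 TPM) and Psme4 (6.89 TPM), the lowest of the cap. The 3 assembly chaperones averaged 38.7 to 60.8 TPM. Psma8 (2.79 TPM) and Psmb11 (0.41 TPM) were at the bottom of the whole set. All 42 members passed the filter of at least 1 TPM in at least 3 libraries and were tested.

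Proteasome transcripts were most abundant at P7 and least abundant at P21. The summed core level was 5835 ± 190 TPM (SD, n = 4) at P7, 5006 ± 168 (SD, n = 4) at P14 and 3801 ± 89.3 (SD, n = 3) at P21. It then stood at 4163 ± 20.1 (SD, n = 3) at P28, 4262 ± 159 (SD, n = 3) at P60, 4495 ± 264 (SD, n = 5) at 3m, 4742 ± 413 (SD, n = 5) at 6m, 4482 ± 119 (SD, n = 3) at 12m and 5021 ± 293 (SD, n = 4) at 18m. The lowest core sum at P7, 5588 TPM, exceeded the highest at P14, 5134 TPM, and the lowest at P14, 4774 TPM, exceeded the highest at P21, 3904 TPM. The summed cap level took the same course at first, with 3825 ± 86.3 TPM (SD, n = 4) at P7, 3326 ± 124 (SD, n = 4) at P14 and 2763 ± 38.6 (SD, n = 3) at P21. From P28 to 18m its means stayed between 2955 and 3387 TPM. The ratio of the P21 to the P7 sum was 0.65 for the core and 0.72 for the cap, and that of the 18m to the P21 sum was 1.32 and 1.17. Together the members made up 0.966% of all transcripts at P7 and 0.657% at P21. Single genes took the same course: 37 of 42 had their highest mean at P7 and 28 their lowest at P21, 14 of the core and 14 of the cap. A further 8 were lowest at P60 and 5, all of the cap group, at 18m. Shares of all genes with their highest or lowest mean at these ages are not given here, so these counts describe the members only. In the test for any difference among the 9 ages, 39 of 42 members were called, against 63.6% of the 14590 genes tested, and the members not called were Psma8, Psmb11 and Psmc5. Its smallest adjusted p-values belonged to Psmd8, Psmb6, Psmb1, Psmb4 and Psmb3 (limma F test, 3.65e-06 to 1.49e-05).

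**Figure D1:**
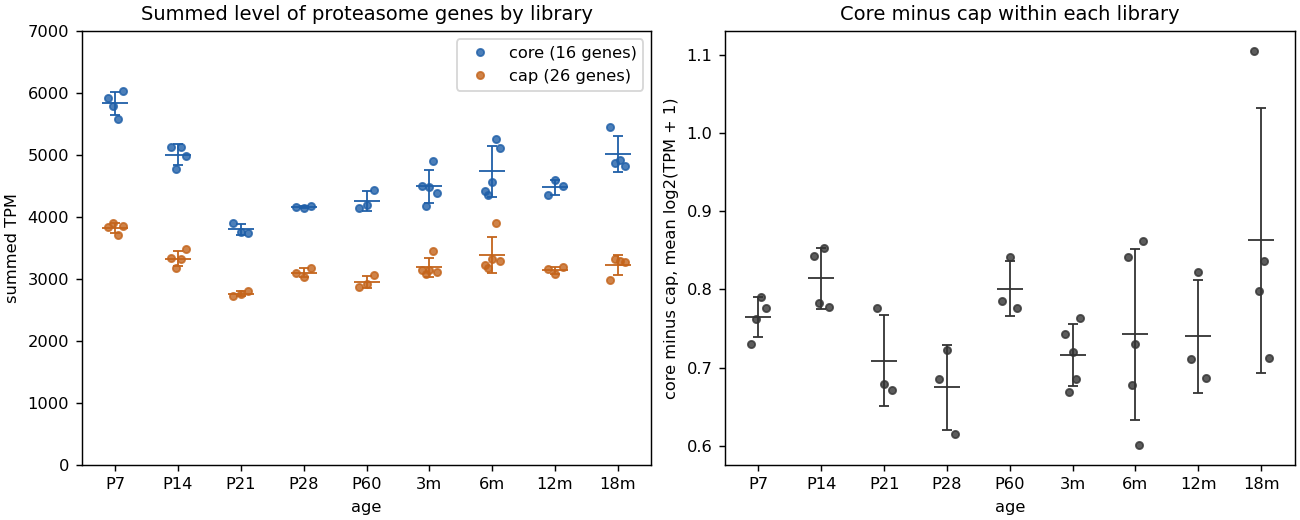
Left, summed TPM of the 16 core and the 26 cap genes in each library by age; right, mean log2(TPM + 1) of the core minus that of the cap in each library. Points are libraries, horizontal bars the means and error bars the SD. Both sums were highest at P7 and lowest at P21, and 18m replicate 1 had the largest difference between core and cap, 1.11.

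The first comparison set young adult against neonatal astrocytes (P60 vs P7). Of 42 members, 38 fell and 0 rose, with a median log2 fold change of -0.42. In the same test 33.3% of all genes fell and 19.5% rose, and the median of all genes was -0.15. By role, 7 of 7 alpha ring genes, 7 of 7 beta ring genes, 5 of 6 base ATPases, 3 of 3 other base genes, 8 of 8 lid genes and 5 of 5 activator genes fell. The 3 assembly chaperones Psmd5, Psmd9 and Psmd10 fell as well, and Psma8, Psmb11, Psmc3ip and Psmc5 were not called. P60 and P7 did not overlap, with P60 lower, in 37 members and in 37.9% of all genes. The count depended on the scale. After a median-of-ratios rescaling, which moved the median of all genes to 0.01, 19 members fell and 1, Psmc5, rose, against 21.4% and 28.3% of all genes. With summed neuronal and oligodendrocyte markers as covariates, 15 members fell, and the share of all genes in that fit is not given here. The number of genes listed at 0 differed too (4522 to 4769 at P7, 2854 to 3130 at P60). For this comparison no fit with that number as a covariate is given here.

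Psma5, an alpha ring subunit, had the largest fall. Its levels were 217, 212, 206 and 221 TPM in the P7 libraries and 141, 140 and 152 TPM at P60. Every P7 library lay above every P60 library, with a log2 fold change of -0.56 ± 0.09 (SE, adjusted p = 3.12e-05, limma). Psmd8, a lid subunit, was at 303, 294, 267 and 291 TPM at P7 and at 199, 187 and 217 TPM at P60. The groups were again apart, with a log2 fold change of -0.52 ± 0.07 (SE, adjusted p = 1.32e-05). Psmc6, an ATPase of the base, went from 113, 108, 101 and 113 TPM to 72.9, 69.4 and 81.5 TPM (-0.54 ± 0.13, adjusted p = 0.00139). Psma4 of the alpha ring and the scaffold Psmd1 completed the 5 largest falls, at -0.54 ± 0.12 (adjusted p = 0.000933) and -0.53 ± 0.13 (adjusted p = 0.00197). All 5 also fell after rescaling. With marker covariates Psma4 (-0.38, adjusted p = 0.0994) and Psmd1 (-0.33, adjusted p = 0.186) no longer passed.

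All 3 catalytic subunits fell. Psmb6 was at 904, 858, 830 and 932 TPM at P7 and at 612, 613 and 652 TPM at P60. Psmb5 was at 513, 509, 499 and 598 TPM at P7 and at 391, 389 and 367 TPM at P60. Psmb7 was at 182, 176, 176 and 173 TPM at P7 and at 134, 140 and 151 TPM at P60. The groups did not overlap for any of the 3. The log2 fold changes were -0.49 ± 0.09 for Psmb6 (adjusted p = 0.000208), -0.47 ± 0.10 for Psmb5 (adjusted p = 0.000388) and -0.32 ± 0.08 for Psmb7 (adjusted p = 0.00134), and differences between them were not tested. After rescaling none of the 3 passed (adjusted p = 0.0719, 0.0877 and 0.297).

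For 28 members the lowest mean was already reached at P21. In the comparison of P21 with P7, added after the data were seen, 37 members fell and 0 rose, against 30.9% and 16.6% of all genes, with a member median of -0.52. Psmb6 stood at 521, 484 and 497 TPM at P21, below every later library as well as every earlier one, and its log2 fold change from P7 was -0.81 ± 0.09 (adjusted p = 1.03e-06). Markers moved over the same interval. All 5 erythroid genes rose, with a sum of 7630 to 10600 TPM at P7 and 36300 to 67800 at P21 on a scale of fixed sum. The astrocyte sum went from 11200 to 13800 TPM to 23700 to 24300 (6 genes rose, 3 fell), the neuronal sum from 45.7 to 71.9 TPM to 251 to 438 (10 of 12 rose) and the oligodendrocyte sum from 256 to 400 TPM to 679 to 1750 (4 of 10 rose, 1 fell). Also, 5 of 6 ependymal, 3 of 10 microglial and 2 of 10 endothelial markers rose, and 4 of 6 fibroblast and 2 of 8 pericyte and mural markers fell. Their part in the P21 levels was not tested. The largest falls were those of Psme1, Psmc3ip (-0.91 ± 0.23, adjusted p = 0.0029) and Psme2. Psme1, a PA28 subunit, was at 176, 179, 165 and 170 TPM at P7 and at 88.6, 93.0 and 93.3 TPM at P21 (-0.91 ± 0.14, adjusted p = 2.11e-05). Its partner Psme2 was at 238, 229, 212 and 209 TPM at P7 and at 124, 120 and 114 TPM at P21 (-0.89 ± 0.13, adjusted p = 1.13e-05). Psme3 fell too (-0.27 ± 0.11, adjusted p = 0.0362) and Psme4 did not pass (-0.34 ± 0.16, adjusted p = 0.0852). At P60 the levels of Psme1 were 121, 141 and 128 TPM and those of Psme2 148, 179 and 177 TPM. Both lay above their P21 and below their P7 libraries, and all 4 activators named here had fallen relative to P7, Psme1 by 0.41, Psme2 by 0.40, Psme3 by 0.34 and Psme4 by 0.45 on the log2 scale (adjusted p = 0.0167, 0.012, 0.0104 and 0.0226). After rescaling Psme4 alone of these still passed (adjusted p = 0.183, 0.211, 0.143 and 0.0465). Without P60 replicate 1, Psme1, Psme2 and Psme4 did not pass (adjusted p = 0.0719, 0.0815 and 0.109), nor did Psme4 without P7 replicate 1 or P60 replicate 2 (adjusted p = 0.0611 and 0.0739). With marker covariates the log2 fold changes of Psme1 and Psme2 from P7 to P60 changed sign, to 0.09 and 0.03.

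**Figure D2:**
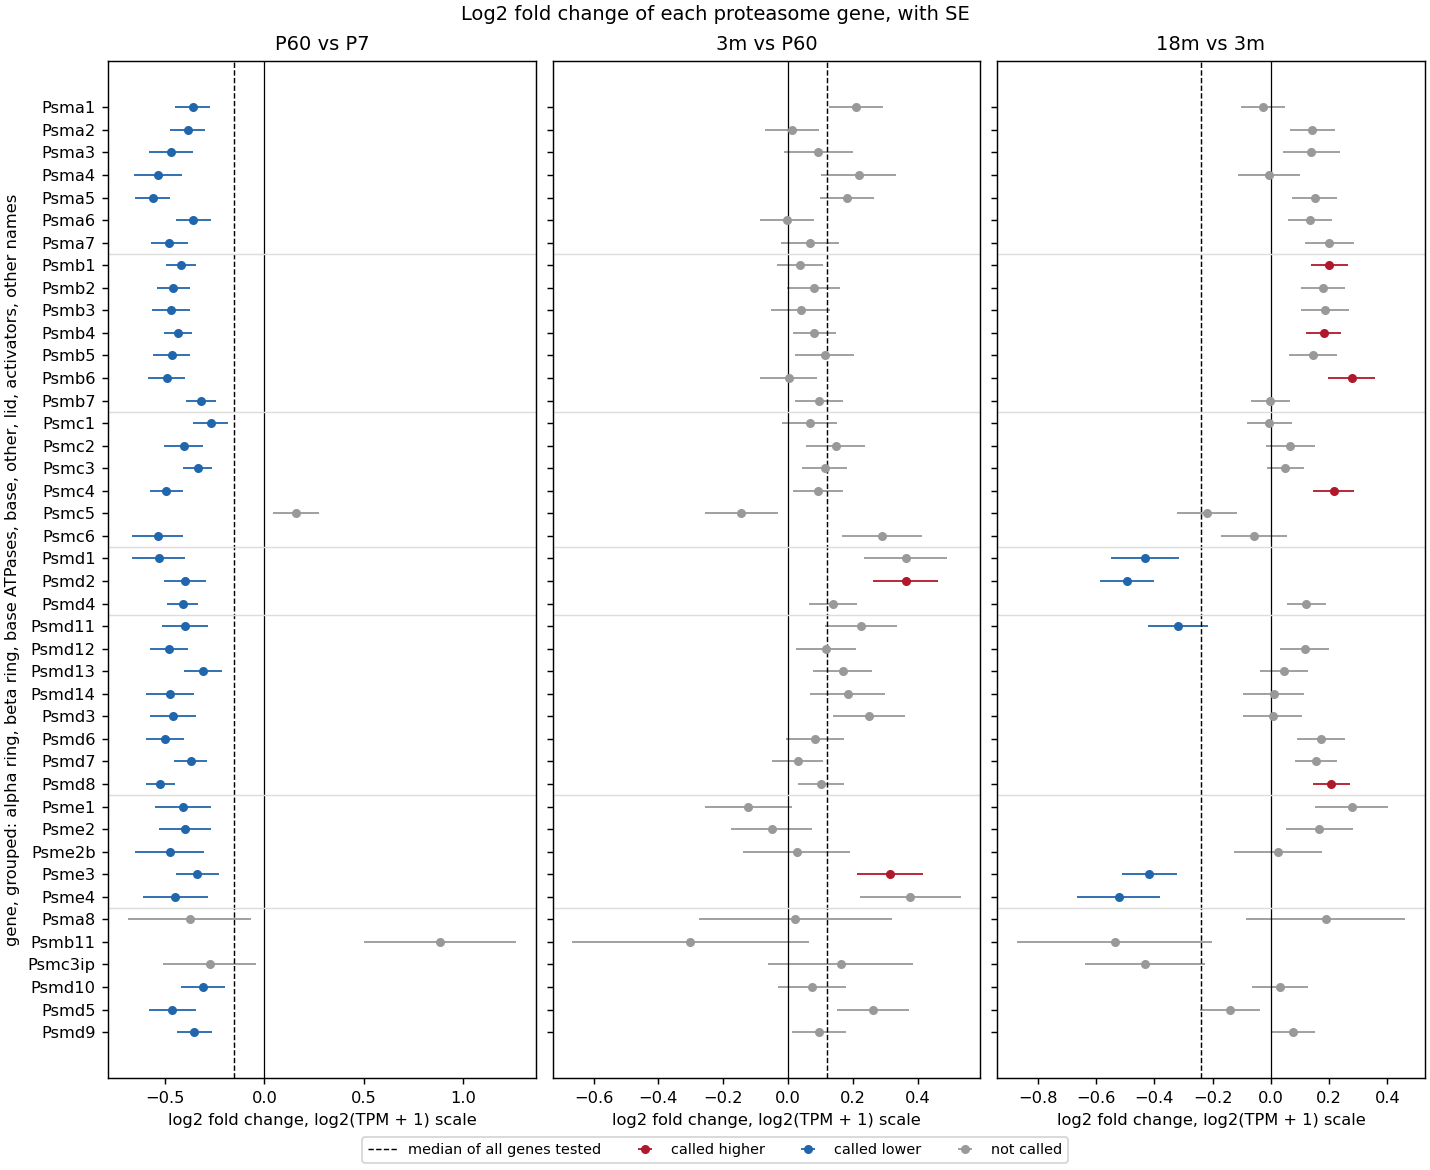
Log2 fold change of each of the 42 members, on the log2(TPM + 1) scale with its SE, in the 3 comparisons, with genes grouped by role. Colour shows genes called higher or lower at an adjusted p under 0.05 and the dashed line is the median of all genes tested. From P7 to P60, 38 members were called lower; from 3m to 18m, 5 were called higher and 5 lower.

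Psmc5 was the only constitutive member not called from P7 to P60. This ATPase of the base was at 261, 243, 240 and 260 TPM at P7, at 200, 213 and 214 TPM at P21 and at 316, 252 and 276 TPM at P60. The P7 and P60 ranges overlapped, and the log2 fold change was 0.16 ± 0.12 (adjusted p = 0.258). At 3m it stood at 214 to 281 TPM and at 18m at 180 to 244 TPM. Over the 34 libraries its mean correlation with the other constitutive members was 0.04, the lowest of the 35. The other constitutive members had mean correlations of 0.30 (Psme3) to 0.67 (Psma5 and Psma6).

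**Figure D3:**
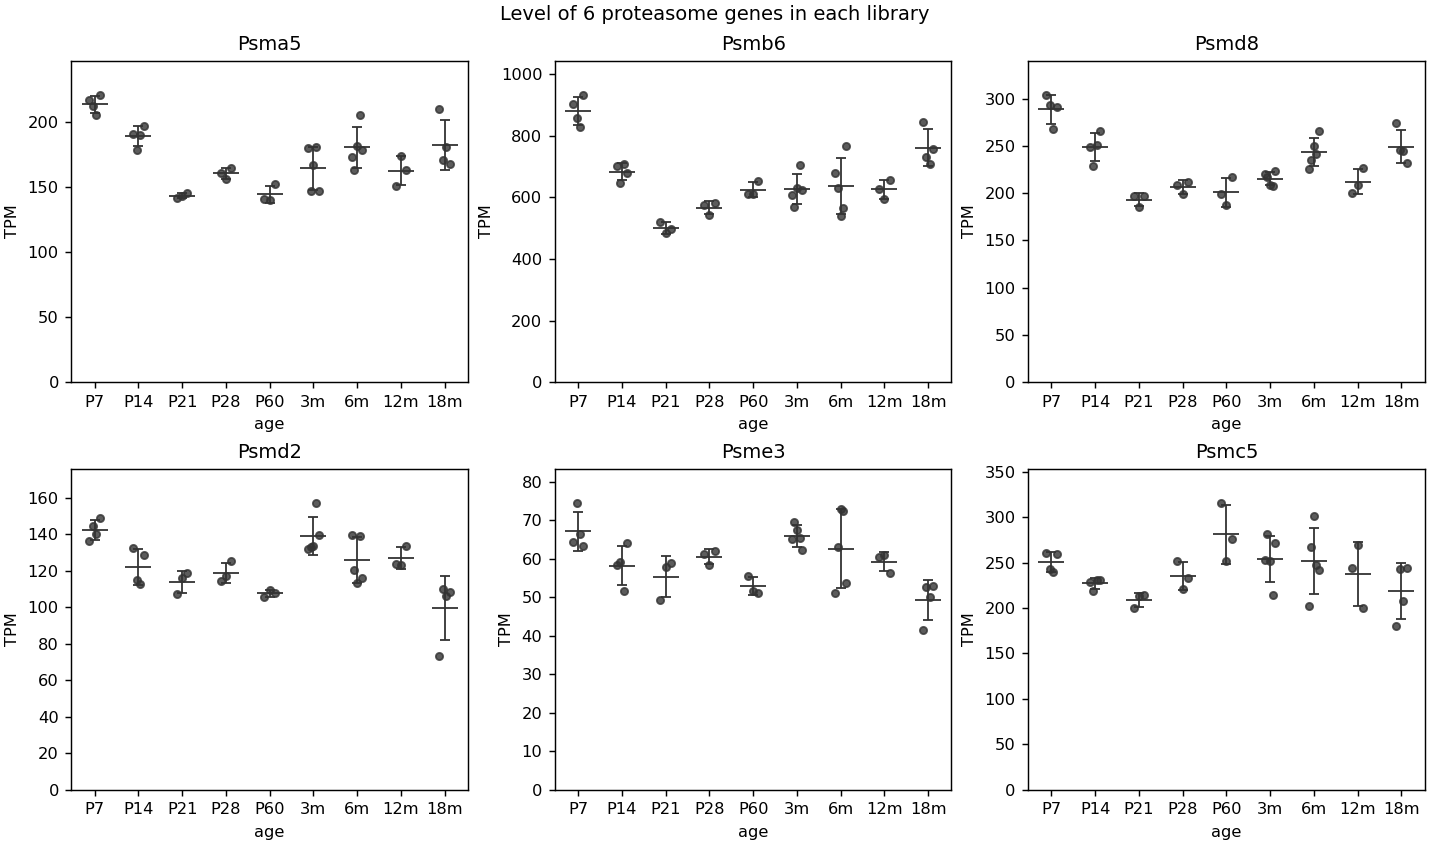
TPM of 6 members in each library by age, with the mean as a horizontal bar and the SD as error bars. Psma5, Psmb6 and Psmd8 had their lowest means at P21, Psmd2 and Psme3 were higher at 3m than at P60 and at 18m, and Psmc5 had its highest mean at P60.

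The second comparison joined the young adult ages (3m vs P60). Only 2 of 42 members rose and 0 fell, against 8.26% and 1.93% of all genes. Psmd2 is a subunit of the cap and Psme3 an activator. The scaffold Psmd2 was at 106, 109 and 108 TPM at P60 and at 132, 133, 133, 157 and 140 TPM at 3m. The groups did not overlap, with a log2 fold change of 0.36 ± 0.10 (SE, adjusted p = 0.0191, limma). Psme3, a nuclear activator, was at 55.5, 51.7 and 51.2 TPM at P60 and at 65.0, 69.6, 67.6, 65.3 and 62.2 TPM at 3m, again apart (0.32 ± 0.10, adjusted p = 0.0465). The scaffold Psmd1 had the same size of difference without passing (0.36 ± 0.13, adjusted p = 0.0645), as did Psme4 (0.38 ± 0.15, adjusted p = 0.115). At 3m, 9 members lay above P60 in every library, against 20.4% of all genes. The median of all genes was 0.12 and that of the members 0.10. After rescaling no member was called, against 4.52% of all genes that rose and 4.72% that fell, with Psmd2 at an adjusted p of 0.074. With the length trend and each library's overall shift removed, 1 member, Psmd2, rose and 0 fell, against 4.87% and 3.98% of all genes. The median of all genes was then -0.006. Leaving out any of the 3 P60 libraries or 3m replicate 4 left 0 members called (adjusted p = 0.0544 to 0.0755 for Psmd2). Leaving out 3m replicate 1, 2 or 3 left Psmd2 alone. P60 libraries also had more genes listed at 0 than 3m libraries. With that number as a covariate no member was called, and the share of all genes called in that fit is not given here.

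The third comparison addressed aging (18m vs 3m). Members split: 5 rose (Psmb6, Psmc4, Psmd8, Psmb1 and Psmb4) and 5 fell (Psme4, Psmd2, Psmd1, Psme3 and Psmd11). The risers included 3 of 14 constitutive core genes. All 5 that fell are in the cap group, with Psme3 and Psme4 in it as activators. Among all genes 4.16% rose and 33.4% fell, with a median of -0.24, and 35 of 42 members, including all 14 constitutive core genes, lay above that median. The member median was 0.07, that of the constitutive core 0.15 and that of the constitutive cap 0.05. At 18m, 5 members lay below 3m in every library and 5 above it, against 26.1% and 3.17% of all genes. After rescaling, which moved the median of all genes to -0.02, 29 members rose and 2, Psmd2 and Psme4, fell, against 17.6% and 19% of all genes. All 5 that rose also rose after rescaling, and 2 of the 5 that fell still fell.

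Psmb6 had the largest rise. It was at 608, 569, 632, 706 and 624 TPM at 3m and at 846, 731, 708 and 759 TPM at 18m. Each 18m library lay above each 3m library, with a log2 fold change of 0.28 ± 0.08 (SE, adjusted p = 0.00867, limma). Psmd8 was at 220, 217, 209, 207 and 223 TPM at 3m and at 274, 246, 245 and 232 TPM at 18m (0.21 ± 0.07, adjusted p = 0.0131). Psmb1 and Psmb4 of the beta ring rose by 0.20 ± 0.07 (adjusted p = 0.0162) and 0.18 ± 0.06 (adjusted p = 0.0201), both without overlap. Psmc4, a base ATPase, was at 181.7, 182.3, 182.9, 239 and 191 TPM at 3m and at 209, 233, 236 and 225 TPM at 18m. Its groups overlapped at 3m replicate 4, the highest of its age, and its log2 fold change was 0.22 ± 0.07 (adjusted p = 0.0194). The other catalytic subunits were not called, Psmb5 at 0.14 ± 0.08 (adjusted p = 0.173) and Psmb7 at 0.00 ± 0.07 (adjusted p = 0.973). Both were called higher after rescaling, and neither with the length trend removed (adjusted p = 0.063 and 0.516). The rises of the called members before rescaling leaned on single libraries. Without 18m replicate 1, 2 members rose and none of Psmb6, Psmd8, Psmb1 and Psmb4 passed (adjusted p = 0.0531, 0.0763, 0.12 and 0.066); without 3m replicate 2, 3 rose; without 3m replicate 4, 9 rose. Psmc4 did not pass without 3m replicate 1 or 2 or 18m replicate 2 or 3 (adjusted p = 0.0507 to 0.0525), nor Psmb1 without 3m replicate 2 (adjusted p = 0.0502). With the number of genes at 0, or with marker covariates, 0 members rose, and shares of all genes in these fits are not given here.

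Among those that fell, the scaffold Psmd2 was at 132, 133, 133, 157 and 140 TPM at 3m and at 73.3, 110, 106 and 108 TPM at 18m. Replicate 1 was far the lowest at 18m, but the other 3 libraries also lay below every 3m library. The log2 fold change was -0.49 ± 0.09 (SE, adjusted p = 0.000244, limma) and, without replicate 1, -0.36 (adjusted p = 0.00202). Its partner scaffold Psmd1 was at 84.9, 75.5, 82.7, 101 and 81.6 TPM at 3m and at 49.4, 67.1, 73.7 and 62.4 TPM at 18m (-0.43 ± 0.12, adjusted p = 0.00531). Psme3 was at 41.6, 52.6, 49.98 and 52.9 TPM at 18m, below its 5 libraries at 3m (-0.42 ± 0.09, adjusted p = 0.00127). Psme4, the giant activator PA200, was at 7.86, 8.27, 7.43, 8.13 and 7.05 TPM at 3m and at 4.53, 4.67, 5.38 and 5.84 TPM at 18m. No library overlapped, and the log2 fold change was -0.52 ± 0.14 (adjusted p = 0.00556). Psmd11 of the lid was at 169, 170, 160, 170 and 152 TPM at 3m and at 117, 150, 113 and 150 TPM at 18m (-0.32 ± 0.10, adjusted p = 0.0149). Without 18m replicate 1 or 3, Psmd11 had an adjusted p of 0.0749 or 0.0684, while without replicate 1 Psme4, Psmd1 and Psme3 still passed. With the number of genes at 0 as a covariate none of the 5 passed. Psme1 and Psme2, the PA28 subunits, were not called (0.28 ± 0.12, adjusted p = 0.076, and 0.17 ± 0.12, adjusted p = 0.257). Both were called higher after rescaling, and Psme1 alone with the length trend removed (adjusted p = 0.0261, against 0.104 for Psme2). Against 6m in place of 3m, the 5 genes that fell from 3m fell again (adjusted p = 0.00535 for Psmd11 to 0.0474 for Psme4). The chaperone Psmd5 fell too, and Psmb4 and Psmb6 rose, so 6 fell and 2 rose against 17.7% and 2.63% of all genes. Against P60 none of the 5 was called (adjusted p = 0.434 to 0.778). In that comparison 1 member, Psmc5, fell (-0.37 ± 0.12, adjusted p = 0.0364) and 8 rose, among them Psma5 (0.33 ± 0.09, adjusted p = 0.0125) and all 5 that rose from 3m, against 10.2% and 3.63% of all genes.

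The 5 members that fell are encoded by long transcripts, at 2237 bases (Psmd11), 2664 (Psme3), 2961 (Psmd2), 3112 (Psmd1) and 6491 (Psme4), and the core genes are short, with a median annotated transcript length of 1162.5 bases against 1586 for the cap. Over the 42 members, the log2 fold change from 3m to 18m had a Pearson r of -0.67 and a Spearman rho of -0.56 with log2 transcript length. Over 14564 genes with a length the values were -0.29 and -0.38. These correlations are across genes of the same libraries and carry no test. Members longer than Psmd11 that were not called were Psmd9 (2597 bases, 0.08), Psma2 (2911 bases, 0.14), Psmb11 (4247 bases, -0.54) and Psmd5 (4397 bases, -0.14). That bound was taken from the called genes. Just below it, Psmc6 (2234 bases, -0.06) and Psmd3 (2148 bases, 0.01) were not called either. The median of all genes was 0.00 among the shortest genes, those up to the lower quartile of 1685.875 bases, and -0.43 among the longest, those from the upper quartile of 3957.5 bases. Within libraries, each gene's deviation from its own mean was taken, and the median of these shortest genes was subtracted from that of the longest. This difference was lower at 18m than at 3m, and was lowest in 18m replicate 1 (-0.57, against -0.25 to -0.20 in the other 3 and 0.05 to 0.23 at 3m). The length trend was then removed from each library, a step chosen after the data were seen. This also took out each library's overall shift, and the median of all genes moved from -0.24 to 0.05. After it, 22 members rose and 1, Psmd2, fell (-0.19 ± 0.06, adjusted p = 0.0137), against 16% and 9.94% of all genes. Psmd1, Psme3, Psme4 and Psmd11 then no longer passed (adjusted p = 0.287, 0.19, 0.746 and 0.363). The parts of length and of the overall shift in these counts were not separated. What made long and short transcripts differ was not tested. From P7 to P60 the members' r with length was 0.26, and with that trend removed 38 members fell and 1, Psmb11, rose, against 35.8% and 22.9% of all genes.

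**Figure D4:**
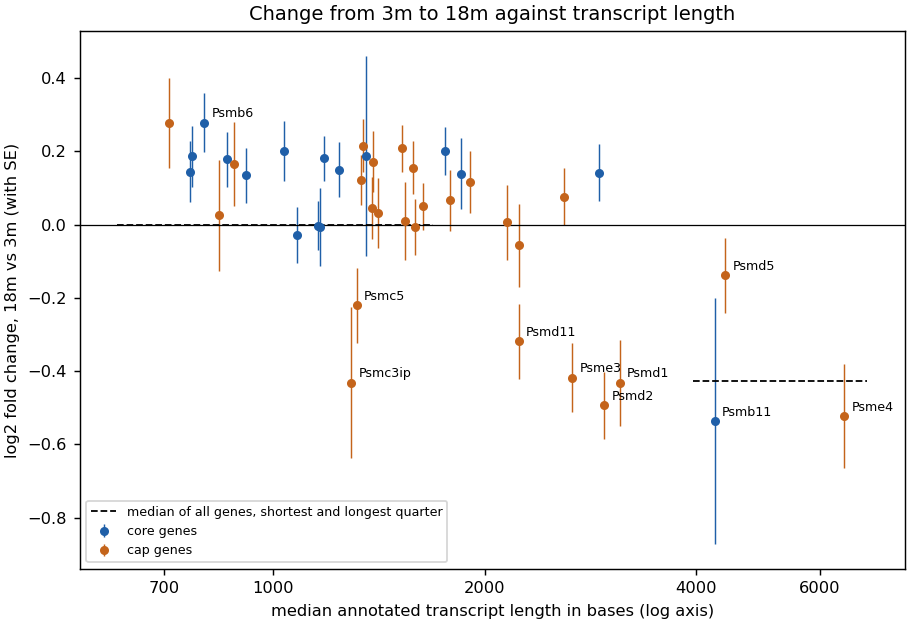
Log2 fold change from 3m to 18m of the 42 members, with SE, against the median annotated transcript length on a log axis. Dashed lines give the median of all genes below the lower and above the upper quartile of length, 0.00 and -0.43. The 5 members called lower have 2237 bases or more.

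Constitutive catalytic subunits can be replaced by the interferon-inducible Psmb8, Psmb9 and Psmb10, which form the immunoproteasome. Per molecule of transcript, Psmb8 stood at 3.32 ± 0.73% of Psmb5 (SD, n = 4) at P7, 10.8 ± 0.50% (SD, n = 3) at P28, 9.46 ± 1.68% (SD, n = 3) at P60, 4.8 ± 0.44% (SD, n = 5) at 3m and 7.78 ± 1.13% (SD, n = 4) at 18m. Psmb9 was 0.79 ± 0.20% of Psmb6 (SD, n = 4) at P7, 2.62 ± 0.07% (SD, n = 3) at P60, 1.22 ± 0.16% (SD, n = 5) at 3m and 1.80 ± 0.26% (SD, n = 4) at 18m. Psmb10 was far closer to its counterpart, at 54.2 ± 4.54% of Psmb7 (SD, n = 4) at P7, 81.8 ± 13.4% (SD, n = 3) at P60, 59.0 ± 2.01% (SD, n = 5) at 3m and 69.4 ± 2.58% (SD, n = 4) at 18m. For each pair the P60 libraries lay above those of P7, and the 18m libraries above those of 3m. Psmb8 itself rose from P7 to P60 (1.02 ± 0.21, adjusted p = 0.000434), fell from P60 to 3m (-0.82 ± 0.20, adjusted p = 0.00846) and rose from 3m to 18m (0.80 ± 0.18, adjusted p = 0.00145). Psmb9 did the same (1.16, -1.02 and 0.76, adjusted p = 0.00113, 0.0117 and 0.0132). Psmb10 was not called in any of the 3 (adjusted p = 0.0754, 0.0508 and 0.0979).

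**Figure D5:**
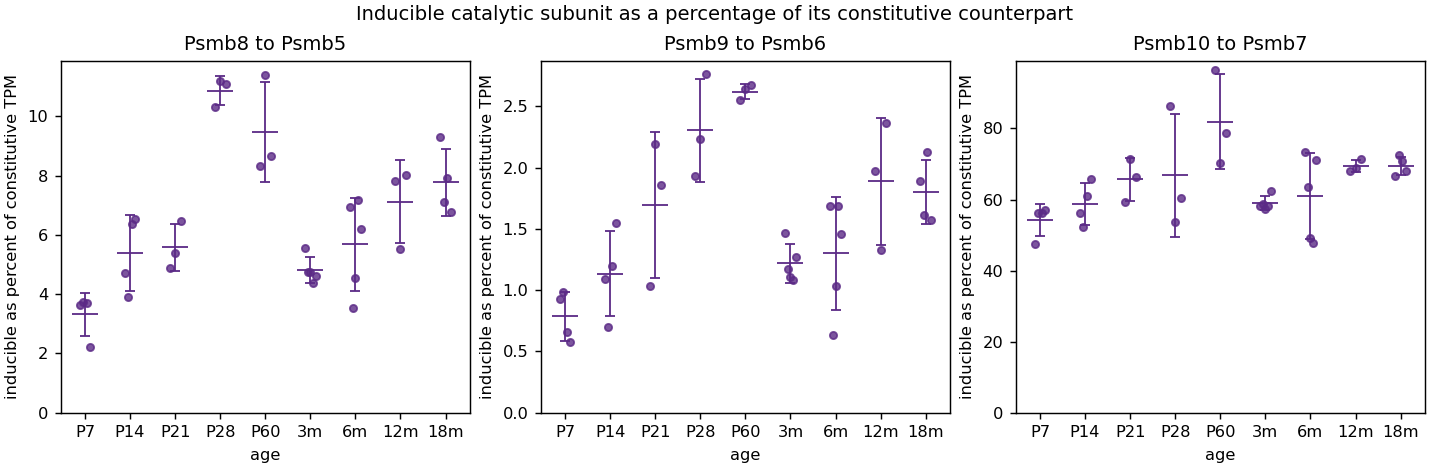
TPM of Psmb8, Psmb9 and Psmb10 as a percentage of Psmb5, Psmb6 and Psmb7 in each library, by age, with the mean as a horizontal bar and the SD as error bars. Each percentage was higher at P60 than at P7 and higher at 18m than at 3m in every library of those ages.

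Genes that serve the proteasome were read from the same fit as a list of 42, of which 41 were tested and Foxo4 was too low. From P7 to P60, 19 fell and 2, Psmb8 and Psmb9, rose, beside 33.3% and 19.5% of all genes. All 5 core assembly chaperones fell with the core, among them Psmg1 (58.4 ± 4.01 TPM at P7, SD, n = 4, and 40.6 ± 2.48 at P60, SD, n = 3; log2 fold change -0.51, adjusted p = 0.000177) and Pomp, the maturation factor (312 ± 9.97 and 214 ± 12.6 TPM; -0.54, adjusted p = 0.00242). Akirin2, which brings proteasomes into the nucleus, fell by 0.47 on the log2 scale (adjusted p = 0.00047). From P60 to 3m, 3 rose and 2 fell, beside 8.26% and 1.93% of all genes, led by the ubiquitin shuttle Ubqln1 (0.55, adjusted p = 0.00114). From 3m to 18m, 14 fell and 3 rose, beside 33.4% and 4.16% of all genes. In this comparison 6 of 8 shuttles and segregase factors fell, and Psmb8, Psmb9 and the chaperone Psmg4 rose. Nfe2l1 was at 26.5, 29.9, 24.0, 24.0 and 25.5 TPM at 3m and at 11.04, 16.6, 18.5 and 16.1 TPM at 18m. No libraries overlapped (-0.72 ± 0.13, adjusted p = 0.000217). Ubqln1 and Ubqln4 fell as well (-0.59 and -0.84, adjusted p = 8.11e-05 and 0.000253), while Pomp did not pass (-0.06, adjusted p = 0.714). The list's counts over all 41 genes were near those shares for the rises from P60 to 3m and the falls from 3m to 18m.

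Members varied together more within the core than within the cap. The median Pearson r between pairs of the 35 constitutive genes over the 34 libraries was 0.82 within the core, 0.51 within the cap and 0.58 between core and cap. After the mean of each age was removed, the medians were 0.53, 0.33 and 0.18. These are descriptions: all pairs share the same libraries, their scale and their length trend. The lowest mean correlations after Psmc5 belonged to Psme3 (0.30), Psmd2 (0.35), Psmd13 (0.35), Psme4 (0.36) and Psmd11 (0.37), 4 of which fell from 3m to 18m.

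Members outside the constitutive complex behaved in several ways. Psmb11 was under 0.50 TPM in all but 4 libraries and at 4.81 TPM in P60 replicate 2, 2.12 TPM in 6m replicate 1, 1.88 TPM in 3m replicate 5 and 0.98 TPM in 3m replicate 4, so its mean rests on few libraries. Psma8 stood between 1.09 and 4.79 TPM with no called change. Psmc3ip, which serves meiotic recombination, ranged from 10.8 to 34.6 TPM and was called in the test over all ages (adjusted p = 0.0101) and lower at P21 than at P7, but in none of the 3 main comparisons. Psme2b followed Psme2 from P7 to P60 (-0.48, adjusted p = 0.0225); the transcripts of these 2 genes are near copies, so reads could be divided between them and both are uncertain. Of the 42 members, 16 overlap a gene on the other strand, 9 overlap a gene on the same strand and 8 have a near copy elsewhere in the annotation, among them Psma4, Psma5, Psmb3, Psmb5 and Psmd2. By position in GENCODE mouse release 21 (GRCm38), Psma5 is at chr3:108256926-108279974, Psmb6 at chr11:70525367-70527858, Psmc5 at chr11:106256154-106263120, Psmd2 at chr16:20651652-20663414, Psmd8 at chr7:29174188-29180701 and Psme3 at chr11:101316213-101323537. How reads in shared stretches were assigned is not given in the sources used here.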

How the data were processed

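The authors deposited gene-level TPM, 1 column per library, each summing to 1e+06 over 20613 genes with values; a further gene had none. Per the submitters' processing notes, Trim Galore 0.6.4, STAR 2.7.1a, RSEM 1.2.28, DESeq2 1.36.0 and build mm10 were used, with no role stated, and the annotation is not given in the sources used here. Per the labels' protocols, cDNA came from SMART-Seq v4 and was sequenced on a NovaSeq. TPM keep no read counts, so depth is unknown and no counting intervals are given.

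From these values, log2(TPM + 1) of the 14590 genes that reached 1 TPM in 3 or more libraries was fitted with limma 3.58.1 (R 4.3.3, statmod 1.5.0, trend and robust settings), with 1 mean per age and all 34 libraries. This scale understates changes of low genes. Benjamini-Hochberg adjustment ran over all of these genes, and a gene counts as called, and is said to rise or fall, at an adjusted p under 0.05. The steps were tested on simulated data. Transcript lengths, positions, overlaps and near copies (at least 95% identity over at least 50% of a transcript, blastn 2.17.0) came from GENCODE mouse release 21, and promoters from RefSeq. Plots used Python 3.11.15 with pandas 2.3.3 and matplotlib 3.10.9.

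Named were the 5 largest called rises and falls of each comparison, the catalytic subunits and activators, the highest and lowest members of core and cap, the 5 smallest F test p-values, members matched by name only, and of the pathway list Psmb8, Psmb9, Psmb10, Pomp, Nfe2l1 and the 3 smallest p-values of each comparison. Other names were chosen after their values were seen. The members, lists, tests and alternatives were chosen with earlier results of these data known. Comparisons that share an age share its libraries: P60 enters the comparisons with P7 and with 3m, and 3m those with P60 and with 18m.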

Additional observations from a re-analysis of the deposited data

Results flagged for a closer look

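In each age with 4 or 5 libraries, a single library far from its neighbours was looked for in the named members and in the core and cap sums. Of 115 such groups, 13 held one, and chance gives about 1 in 20 for a single group. The groups share libraries and the sums contain the members, so the count cannot show an excess over that rate. At P7, replicate 4 was high for Psmb5 (598 TPM, the others 499 to 513) and Psmb3 (616 TPM, the others 574 to 580). At P14, replicate 2 was low for Psmc5 (219 TPM, the others 229 to 231). At 3m, replicate 4 was high for Psmc4 (239 TPM, the others 182 to 191), Psmb3 (481 TPM, the others 411 to 430) and the cap sum (3450 TPM, the others 3090 to 3140). At 6m, replicate 4 was high for Psmd1 (125 TPM, the others 69.3 to 78) and the cap sum (3910 TPM, the others 3180 to 3320), and replicate 1 for Psmb11 (2.12 TPM, the others 0.111 to 0.214). At 18m, replicate 1 was low for Psmd2 (73.3 TPM, the others 106 to 110) and the cap sum (2980 TPM, the others 3280 to 3330), and high for Psmb3 (609 TPM, the others 460 to 466) and the core sum (5460 TPM, the others 4830 to 4920).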

How the results depend on the processing

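For P60 vs P7, the 38 members called lower became 19 after median-of-ratios rescaling and 15 with neuronal and oligodendrocyte covariates, and 33 to 38 with a library left out. The 0 called higher became 1 under rescaling, quantile normalization, the covariates and removal of the length trend (0 to 1 with a library left out). With the covariates the log2 fold changes of Psme1 and Psme2 turned to 0.091 and 0.031. For 3m vs P60, the 2 called higher became 1 with no filter, quantile normalization or the length trend removed, 0 after rescaling or with genes at 0 as a covariate, and 0 to 2 with a library left out. The member median turned to -0.071 after rescaling. For 18m vs 3m, the 5 called higher became 29 after rescaling, 22 with the length trend removed, 8 against P60 in place of 3m, 2 against 6m or with only the 2 ages fitted, and 0 with either set of covariates (2 to 9 with a library left out). The 5 called lower became 2 after rescaling, 1 against P60, 1 with the length trend removed and 0 with genes at 0 as a covariate (4 to 6 with a library left out). The member median turned to -0.012 with the marker covariates, as did Psme1 (-0.064) and Psme2 (-0.107). Psmb7 changed sign after rescaling (0.248), quantile normalization (0.012), against P60 (0.093), with the length trend removed (0.064) and with a library left out (-0.049 to 0.032, including 0.014, 0.001, 0.032 and 0.003). In the test over the 9 ages, 24 members were called with the marker covariates and 36 to 40 with a library left out. Counts with covariates are given without the share of all genes called in the same fit. The causes were not tested. Removing the length trend and P21 in place of P60 were chosen after seeing the data. Removing the length trend also took out each library's overall shift.

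Replicate numbers did not pair libraries: deviations from the age means had a mean correlation of 0.0023 over 119 same-numbered pairs (lowest -0.44). With the replicate block, 8 members were called higher and 5 lower for 18m vs 3m, 3 higher for 3m vs P60 and 38 lower for P60 vs P7. Of all 14590 genes tested, the same fits called 6346, 1584 and 7727 in either direction. Without read counts, precision rests on 3 to 5 libraries an age.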
